A study of Homo sapiens with 9 samples.

Results

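The 10 genes described here encode enzymes and core partners of DNA methylation and of the Polycomb repressive complex 2 (PRC2): DNMT1, UHRF1, DNMT3A, DNMT3B, TET1, TET2, TET3, EZH2, EED and SUZ12. They were taken by gene symbol from a count table of 59050 genes, in which 10 of 10 were found. All 10 passed the filter that 13463 genes passed, namely more than 1 CPM (counts scaled for library size) in at least 3 of the 9 libraries, although DNMT3B did so through 3 libraries and TET1 through 7. RNA was sequenced from MEC1, an established chronic lymphocytic leukemia (CLL) B cell line that grows in suspension. There were 3 groups of 3 libraries: cells cultured in suspension (2D), and cells bioprinted in a hydrogel scaffold and collected after 7 days (3D_7d) or 14 days (3D_14d) of culture. The labels name no drug, gene deletion or other line for any group, but all sample titles hold the letters PGK, which neither the labels nor the methods explain. RNA of the scaffolds was extracted with TRIzol, DNase I and then a column, and RNA of 2D cells with the column kit alone, so that extraction and culture cannot be told apart in either comparison with 2D. The labels give no day for the 2D culture, so that time in culture and scaffold cannot be told apart there either. Nothing states that the replicates were separate cultures, and p-values then measure only the spread between these libraries.

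DNA methylation at CpG dinucleotides is copied onto new strands at replication by DNMT1, which UHRF1 brings to hemimethylated sites. DNMT3A and DNMT3B methylate CpGs that carried no methyl group, and the TET enzymes oxidize the methyl group as a step towards its removal. PRC2 methylates histone H3 on a lysine of its tail (H3K27me3), a mark of silent genes: EZH2 holds the catalytic site, EED binds the mark and stimulates the enzyme, and SUZ12 is the scaffold of the core. EZH2 is known to be high in dividing germinal center B cells and low in resting B cells, and DNMT3A and TET2 are recurrently mutated in blood cancers.

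Total counts per library were between 54662799 and 85968686, so that counting error was small for 8 of the genes, and mitochondrial genes took 2.30 to 2.83% of counts in 2D, 1.44 to 1.64% in 3D_7d and 1.62 to 2.82% in 3D_14d. Replicates of 3D_14d differed most among themselves, their counts giving a chi-square of 155 to 305 per gene for each pair, compared with 22.5 to 81.9 in the other groups, and replicate 1 lay farthest. The B cell label held: 7 of 7 B cell markers passed the filter, with summed levels of 3239 to 3273 CPM in 2D, 3741 to 4337 CPM in 3D_7d and 4412 to 5077 CPM in 3D_14d. Its members did not move alike: MS4A1 rose at day 7 (841 to 1524 CPM) and CD79A at day 14 (509 to 1312 CPM), whereas CD22 fell at both times (542 to 249.6 and 333 CPM). Of 7 T cell and 6 monocyte markers 0 passed, and no library exceeded 1.67 and 1.06 CPM over either list. Stromal markers (2 of 6 passed) summed to 10.3 to 11.5 CPM in 2D, 2.36 to 5.33 CPM in 3D_7d and 2.68 to 8.91 CPM in 3D_14d. The part of the mitochondrial share and of these markers in the results below was not tested. In bulk RNA, fewer cells in a state and less RNA per cell cannot be told apart.

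Promoters are shown first for UHRF1, which rose and then fell, and for EED, SUZ12 and EZH2, which share a complex and did not move together. RefSeq promoter windows (GRCh38.p14, 250 bases before to 50 after the start) were found for all 10 genes, and the stretch before the start that no annotated exon of the gene covers is printed for these 4 (for UHRF1 it lies inside the annotated gene, between exons), 5′ to 3′ on the strand of the gene, with motif letters in capitals. Motifs were searched on both strands: E2F (TTCCCGC as the first form, TTCGCGC as the second, TTGCCGC as the third and TTGGCGC as the fourth), the cell cycle homology region (CHR, TTTGAA or TTCGAA) and CCAAT, none of which contains another.
UHRF1, chr19:4909251-4909429 (+): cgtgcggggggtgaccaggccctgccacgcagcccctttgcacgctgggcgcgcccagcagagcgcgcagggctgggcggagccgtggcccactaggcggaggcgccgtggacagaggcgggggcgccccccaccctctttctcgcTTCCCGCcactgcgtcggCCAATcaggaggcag
EZH2, chr7:148884292-148884541 (-): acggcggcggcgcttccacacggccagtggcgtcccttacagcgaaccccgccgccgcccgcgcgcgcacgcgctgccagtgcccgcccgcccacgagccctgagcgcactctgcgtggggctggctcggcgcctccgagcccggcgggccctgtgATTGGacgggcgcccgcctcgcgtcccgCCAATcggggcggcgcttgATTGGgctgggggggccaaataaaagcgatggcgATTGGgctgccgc
SUZ12, chr17:31936757-31937006 (+): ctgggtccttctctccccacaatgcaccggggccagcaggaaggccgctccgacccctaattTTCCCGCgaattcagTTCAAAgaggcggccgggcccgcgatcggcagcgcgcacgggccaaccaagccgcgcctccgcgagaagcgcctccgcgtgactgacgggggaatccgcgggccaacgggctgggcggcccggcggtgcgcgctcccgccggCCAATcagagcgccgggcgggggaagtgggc
EED, chr11:86244503-86244752 (+): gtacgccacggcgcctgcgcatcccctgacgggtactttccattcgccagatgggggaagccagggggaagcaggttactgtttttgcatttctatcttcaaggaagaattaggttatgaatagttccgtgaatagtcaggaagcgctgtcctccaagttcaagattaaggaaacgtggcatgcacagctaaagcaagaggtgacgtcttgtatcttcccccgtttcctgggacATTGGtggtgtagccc
The UHRF1 stretch held 1 E2F match and 1 CCAAT, and a second E2F match of its window lay closer to the start. That of EZH2 held 4 CCAAT boxes, 3 of them read on the other strand as ATTGG, and 38 CpGs, with its E2F match just after the start and outside the printed letters. SUZ12 carried 1 match of each motif and 34 CpGs, whereas EED carried 1 CCAAT, 0 E2F matches and 11 CpGs. Over the first window of each of the 10 genes, E2F was matched in 5 (DNMT1, UHRF1, TET3, EZH2 and SUZ12), CHR in 2 and CCAAT in 5. Of 35116 RefSeq windows of the same length, 13.0% held E2F, 16.4% CHR and 34.6% CCAAT. These windows include every listed start of a gene and had a median GC of 58.7%. The first windows of the 5 genes with E2F had 68.3% (DNMT1) to 82.7% (TET3), and the part of GC in the matches was not tested. The observed to expected CpG ratio was above 0.6 in 8 of the 10 (0.877 for UHRF1, 1.10 for EZH2, 1.00 for SUZ12 and 0.784 for EED), and lower in TET1 (0.463) and DNMT3B (0.118), against a median of 0.579 over all windows. The DNMT3B window (chr20:32779602-32779901) lies inside the annotated gene, which starts at 32762385, so the promoter at its 5′ end was not examined. A match is only a match of letters, and binding was not measured here.

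In 3D_7d vs 2D, UHRF1 and EED were up-regulated, SUZ12 was down-regulated, and 7 of the 10 did not pass the threshold of an adjusted p of 0.05 (edgeR quasi-likelihood test, adjusted over all 13463 genes). In the same comparison 43.4% of all genes tested passed, 22.2% higher and 21.2% lower in 3D_7d. Values of the groups did not overlap for 6 of the 10 genes (3 above, 3 below), against 64.6% of all genes. In 3D_14d vs 2D, 5 genes were down-regulated (DNMT1, UHRF1, TET2, EZH2 and SUZ12) and EED was up-regulated, where 36.2% of all genes passed, 19.0% higher and 17.2% lower. Groups did not overlap for 7 of the 10 (1 above, 6 below), against 49.7% of all genes. In 3D_14d vs 3D_7d, DNMT1, UHRF1 and EZH2 were down-regulated and 0 of the 10 were up-regulated, where 28.1% of all genes passed, 14.5% higher and 13.6% lower. These 3 were also the genes without overlap, against 39.3% of all genes. Median log2 fold changes of the 10 genes were -0.14, -0.72 and -0.38 in the 3 comparisons, beside -0.0039, 0.023 and -0.0012 over all genes tested. Comparisons with 2D share the 2D libraries.

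**Figure D1:**
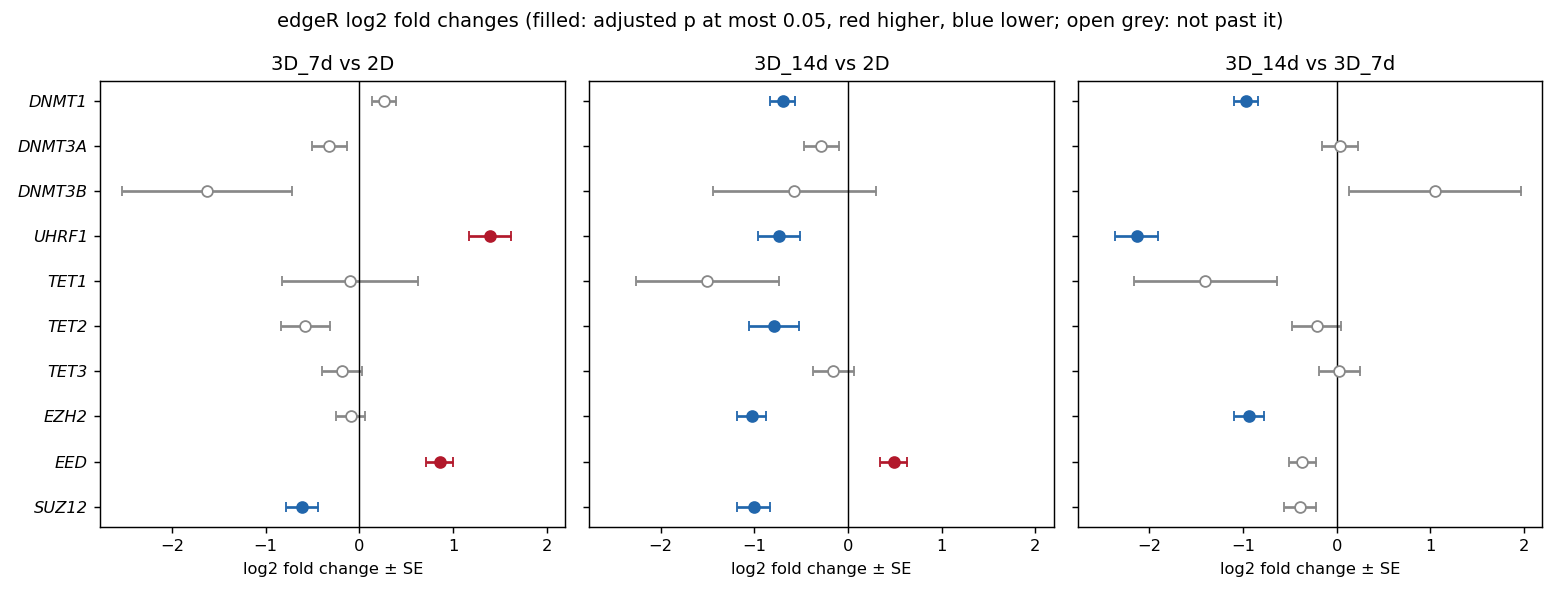
Log2 fold changes (x axis) of the 10 genes (y axis) at day 7 and at day 14 against 2D and between the 3D times (panels left to right), each with its standard error. Filled points passed an adjusted p of 0.05 (red higher, blue lower in the first group) and open grey points did not. UHRF1 moves from 1.40 at day 7 to -0.74 at day 14 against 2D, and EED is the sole filled point above 0 in the middle panel.

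Of the maintenance pair, UHRF1 moved most. UHRF1 (chr19:4903080-4962154, + strand, GRCh38) recognizes hemimethylated CpGs and ubiquitinates histone H3 to recruit DNMT1. Its level was 49.7, 58.0 and 55.2 CPM in the 2D libraries, 155, 132 and 143 CPM in 3D_7d, and 21.5, 46.3 and 30.1 CPM in 3D_14d. The 3 groups did not overlap: 3D_7d was highest and 3D_14d lowest. UHRF1 rose 2.64-fold in 3D_7d vs 2D (log2 fold change 1.40, SE 0.22, adjusted p = 0.000397) and fell in 3D_14d vs 2D (-0.74, SE 0.22, adjusted p = 0.0212). Between the 3D times it was 4.39-fold lower at day 14 (-2.13, SE 0.23, adjusted p = 0.000121), the largest change of the 10 genes in any of the 3 comparisons. The day 14 call against 2D was lost without 2D replicate 2 (adjusted p = 0.0511) or without 3D_14d replicate 3 (adjusted p = 0.0660), with log2 fold changes of -0.72 and -0.68.

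DNMT1 (chr19:10133346-10195135, - strand) is the maintenance methyltransferase and had the highest level per length of the 10 genes in 2D. It was measured at 161, 151 and 173 CPM in 2D, 199.9, 184 and 199.8 CPM in 3D_7d and 103, 106 and 90.3 CPM in 3D_14d. Every 3D_7d library lay above every 2D library, and every 3D_14d library below. The day 7 difference was 0.27 on the log2 scale (SE 0.13) and did not pass the threshold (adjusted p = 0.114). DNMT1 fell in 3D_14d vs 2D by 0.70 on the log2 scale (SE 0.13, adjusted p = 0.00139) and in 3D_14d vs 3D_7d by 0.97 (SE 0.13, adjusted p = 0.000432). Within a library, the ratio of UHRF1 to DNMT1 per kilobase of exon was 0.357 ± 0.043 in 2D, 0.780 ± 0.036 in 3D_7d and 0.346 ± 0.12 in 3D_14d (SD, n = 3 each). It did not overlap between 3D_7d and either other group (exact two-sided permutation p = 0.1 for both, the smallest p that 3 against 3 allows). Between 3D_14d and 2D the ratios overlapped (exact permutation p = 0.9).

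**Figure D2:**
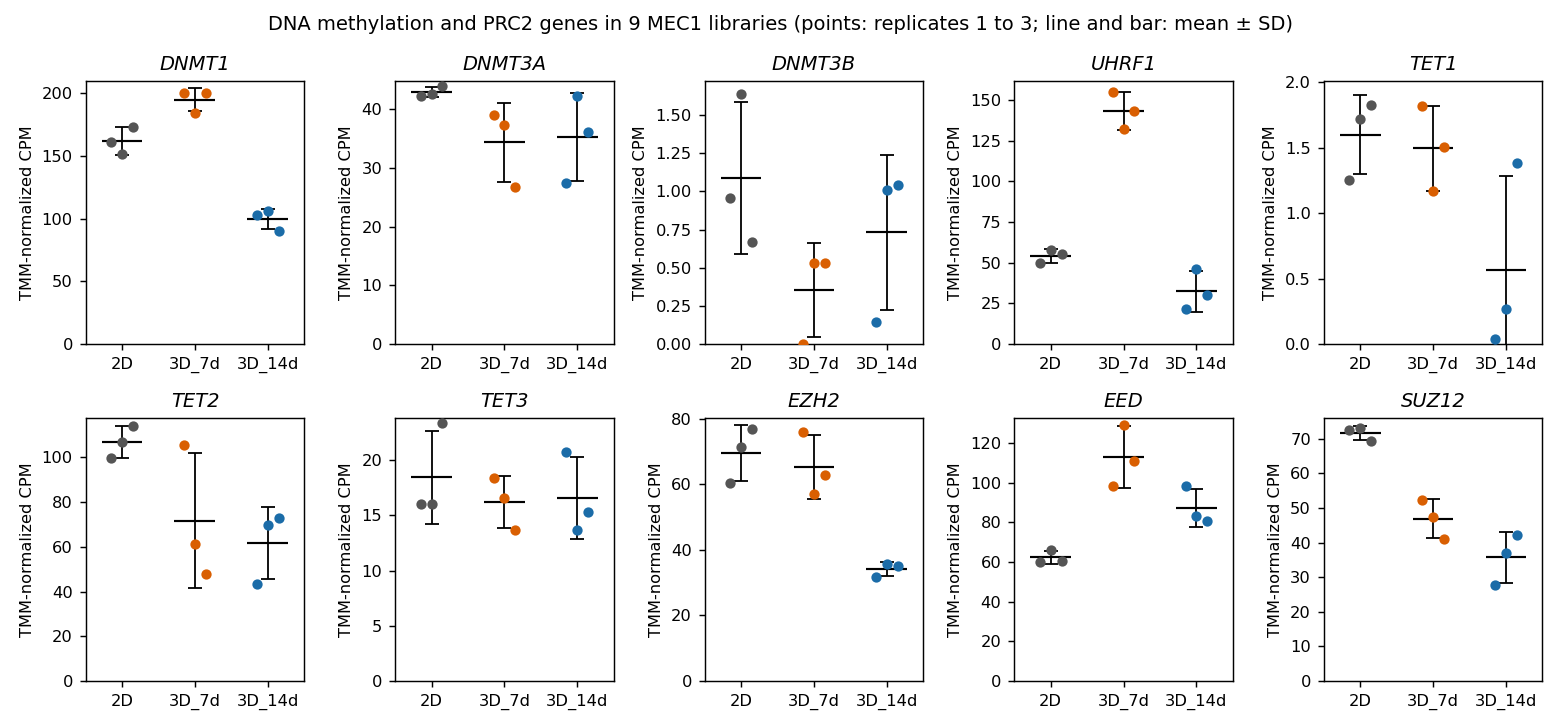
TMM-normalized CPM (y axis, from 0) of each of the 10 genes in the 2D, 3D_7d and 3D_14d libraries, with the mean and SD of 3 replicates; where the SD passes below 0 the bar is cut at 0. UHRF1 and EED are highest in 3D_7d, DNMT1 and EZH2 are lowest in 3D_14d, and DNMT3B and TET1 stay under 2 CPM in every library.

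The de novo methyltransferases were not called in any comparison. DNMT3A (chr2:25227855-25342590, - strand) was measured at 42.2, 42.6 and 43.9 CPM in 2D, 39.0, 37.3 and 26.7 CPM in 3D_7d and 27.4, 42.2 and 36.2 CPM in 3D_14d. All 3D values lay below all 2D values, by little in the highest 3D_14d library. Its log2 fold changes were -0.32 (SE 0.19, adjusted p = 0.189), -0.28 (SE 0.19, adjusted p = 0.261) and 0.04 (SE 0.19, adjusted p = 0.900). DNMT3B (chr20:32762385-32809356, + strand) was a low gene. It had 58, 152 and 51 counts in 2D, 0, 29 and 28 counts in 3D_7d and 8, 53 and 58 counts in 3D_14d. The library with 0 counts allows a level of up to 0.0519 CPM (3 counts, counting error only). No DNMT3B comparison passed, and the standard errors of its log2 fold changes were 0.87 to 0.92, with replicates that spread widely. DNMT3L, the inactive cofactor of both enzymes, had at most 2 counts in any library.

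Among the TET dioxygenases, TET2 was the most abundant and the one called. TET2 (chr4:105145875-105279816, + strand) was measured at 99.7, 107 and 114 CPM in 2D, 106, 61.4 and 47.9 CPM in 3D_7d and 43.2, 69.6 and 72.7 CPM in 3D_14d. At day 7 replicate 1 lay within the 2D range and replicates 2 and 3 below it, and at day 14 all 3 libraries lay below. The log2 fold change was -0.58 (SE 0.26, adjusted p = 0.0927) in 3D_7d vs 2D and -0.79 (SE 0.26, adjusted p = 0.0328) in 3D_14d vs 2D. Without 3D_7d replicate 1 the day 7 difference became -0.99 and passed (adjusted p = 0.00514), and it passed at -0.60 with DESeq2 (adjusted p = 0.0474). The day 14 call was lost without 2D replicate 2, 2D replicate 3 or 3D_14d replicate 1 (adjusted p = 0.0581, 0.0733 and 0.0795). TET3 (chr2:73986404-74108176, + strand) ranged from 13.7 to 23.3 CPM over the 9 libraries, with overlapping groups and no call. TET1 (chr10:68560337-68694487, + strand) had 76, 159 and 139 counts in 2D, 105, 64 and 79 in 3D_7d, and 2, 14 and 77 in 3D_14d. Its 3D_14d libraries spread from 0.0371 to 1.39 CPM, and the log2 fold change against 2D (-1.50, SE 0.76) did not pass (adjusted p = 0.141). Without 3D_14d replicate 3 it was -3.39 and passed (adjusted p = 0.00377), and with no filter on low counts it was -1.60 and passed (adjusted p = 0.0338).

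The core subunits of PRC2 did not all move alike. Against 2D, EED rose and SUZ12 fell at both times, and EZH2 fell at day 14 alone, by about as much as SUZ12. EZH2 (chr7:148807384-148884287, - strand), the catalytic subunit, was measured at 60.5, 71.4 and 77.1 CPM in 2D, 76.2, 57.2 and 62.8 CPM in 3D_7d and 31.7, 35.8 and 35.0 CPM in 3D_14d. The 2D and 3D_7d libraries overlapped, and all 3D_14d libraries lay below both. EZH2 differed by -0.09 on the log2 scale at day 7 (SE 0.16, adjusted p = 0.663). It fell by 1.03 in 3D_14d vs 2D (SE 0.16, adjusted p = 0.000385) and by 0.94 in 3D_14d vs 3D_7d (SE 0.16, adjusted p = 0.00139). EZH1, the alternative catalytic subunit that is known from resting cells, had means of 33.0, 24.3 and 23.3 CPM in 2D, 3D_7d and 3D_14d and was not called. The ratio of EZH2 to EZH1 per kilobase was 3.30 ± 0.57 in 2D, 4.11 ± 0.58 in 3D_7d and 2.25 ± 0.37 in 3D_14d (SD, n = 3 each). It was lower in every 3D_14d library than in any other (exact permutation p = 0.1 against each group). The gap to 2D was narrow, between 2.66 in the highest 3D_14d library and 2.68 in the lowest 2D library.

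EED (chr11:86244753-86278813, + strand), the subunit that reads H3K27me3, was measured at 60.2, 65.8 and 60.7 CPM in 2D, 98.1, 129 and 111 CPM in 3D_7d and 98.4, 83.0 and 80.7 CPM in 3D_14d. All 6 scaffold libraries lay above all 2D libraries. EED rose 1.81-fold in 3D_7d vs 2D (log2 fold change 0.86, SE 0.15, adjusted p = 0.000606) and 1.40-fold in 3D_14d vs 2D (0.49, SE 0.15, adjusted p = 0.0198). With scaling by total counts alone the day 14 value was 0.28 (adjusted p = 0.119), and it also missed the threshold without any one of the 2D replicates (adjusted p = 0.0959, 0.0679 and 0.1002). The 3D times overlapped (-0.37, SE 0.15, adjusted p = 0.0771), a difference that passed with total counts alone (-0.42, adjusted p = 0.0368) or without 3D_14d replicate 1 (-0.44, adjusted p = 0.0264). Of the exonic bases of EED 1.93% are shared with another gene.

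SUZ12 (chr17:31937007-32001038, + strand), the scaffold of the complex, was measured at 72.6, 73.2 and 69.5 CPM in 2D, 52.5, 47.3 and 41.0 CPM in 3D_7d and 27.7, 37.1 and 42.3 CPM in 3D_14d. Every 3D library lay below every 2D library, the reverse of EED. SUZ12 fell by 0.61 on the log2 scale in 3D_7d vs 2D (SE 0.17, adjusted p = 0.0115) and by 1.01 in 3D_14d vs 2D (SE 0.17, adjusted p = 0.000792). The 3D times overlapped (-0.39, SE 0.17, adjusted p = 0.101). The pseudogene SUZ12P1 is a near-identical copy with which reads may be split. It held 8.31 to 10.9% of the counts of the pair in 2D, 9.50 to 12.5% in 3D_7d and 11.4 to 21.3% in 3D_14d. Summed over both, the level was 79.5 ± 1.67 CPM in 2D, 52.5 ± 5.55 CPM in 3D_7d and 41.7 ± 6.32 CPM in 3D_14d (SD, n = 3 each). The pseudogene alone was not called in any comparison.

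Within each library, the ratio of EED to SUZ12 per kilobase was 1.14 ± 0.047 in 2D, 3.20 ± 0.64 in 3D_7d and 3.37 ± 1.1 in 3D_14d (SD, n = 3 each). The lowest 3D ratio, 2.46, lay above the highest 2D ratio, 1.18 (exact permutation p = 0.1 at either time), and the 3D times overlapped (exact permutation p = 0.9). EZH2 to SUZ12 was 1.43 ± 0.20 in 2D, 2.05 ± 0.25 in 3D_7d and 1.44 ± 0.24 in 3D_14d, so that at day 14 EZH2 and SUZ12 stood in the same range of ratios as in 2D (exact permutation p = 1). DNMT1 to DNMT3A was 7.42 ± 0.39, 11.5 ± 2.8 and 5.74 ± 1.4 in the same order of groups. TET2 to TET3 was 4.33 ± 0.68, 3.15 ± 0.91 and 2.90 ± 1.2, with overlap in each comparison. TET1 to TET2 was 0.0243 ± 0.0033 in 2D, 0.0369 ± 0.013 in 3D_7d and 0.0130 ± 0.016 in 3D_14d. DNMT3B to DNMT3A was 0.0591 ± 0.028 in 2D and 0.0450 ± 0.029 in 3D_14d, and was not compared at day 7, where 1 library had 0 counts. Over 8 ratios, 22 comparisons were tested, 11 reached the smallest possible p, and that p was 0.2 after Benjamini-Hochberg adjustment over the 22. A within-library ratio does not depend on the library scaling.

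**Figure D3:**
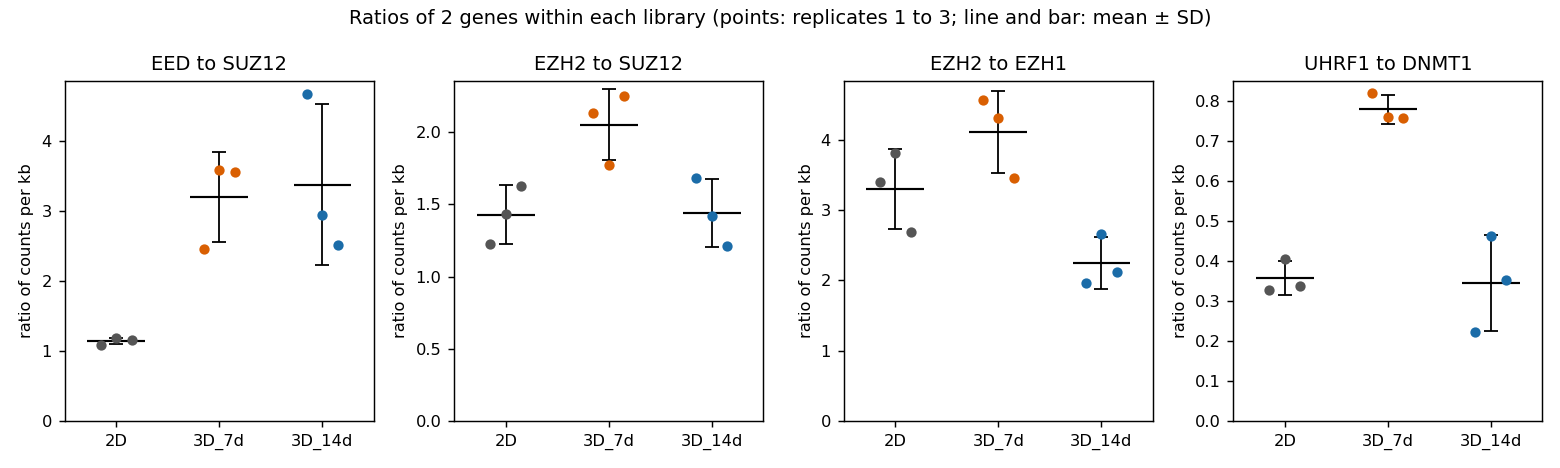
Ratios of counts per kilobase of 2 genes (y axis, from 0) within each library of 2D, 3D_7d and 3D_14d, with the mean and SD of 3 replicates. EED to SUZ12 is near 1.14 in 2D and between 2.46 and 4.67 in the 6 scaffold libraries, and UHRF1 to DNMT1 is raised in 3D_7d alone.

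Per kilobase of exon (RPKM, CPM divided by the exon length in the count table), the order of levels in 2D was DNMT1 (29.6 ± 2.0), EZH2 (22.7 ± 2.8), EED (18.2 ± 0.91), SUZ12 (16.0 ± 0.45), UHRF1 (10.6 ± 0.82), TET2 (6.80 ± 0.46), DNMT3A (3.995 ± 0.085), TET3 (1.61 ± 0.37), DNMT3B (0.235 ± 0.11) and TET1 (0.166 ± 0.032; SD, n = 3 each). Only DNMT3B and TET1 overlapped with their neighbor in that order. In 3D_7d, UHRF1 had moved from the fifth place to the third at 27.8 ± 2.2 RPKM and EED to the second at 32.9 ± 4.6 RPKM. There DNMT1 overlapped with EED and EED with UHRF1, as TET2 did with DNMT3A. In 3D_14d, EED led at 25.5 ± 2.8 RPKM, ahead of DNMT1 (18.3 ± 1.5 RPKM) and EZH2 (11.2 ± 0.70 RPKM) without overlap. SUZ12, UHRF1, TET2 and DNMT3A formed a run of overlapping neighbors between 7.94 and 3.28 RPKM on average. Spread between replicates differed between groups. The coefficient of variation over the 10 genes had a median of 7.21% in 2D, 14.7% in 3D_7d and 21.6% in 3D_14d, and reached 128% for TET1 in 3D_14d.

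Calls among accessory PRC2 subunits went both ways, in shares near those of all genes (43.4, 36.2 and 28.1% called in the 3 comparisons). Of 10 other PRC2 subunits tested, 2 rose and 3 fell in 3D_7d vs 2D, 0 and 2 in 3D_14d vs 2D, and 1 and 2 in 3D_14d vs 3D_7d. The histone chaperones RBBP4 (352 to 518 CPM) and RBBP7 (198 to 279 CPM) rose at day 7, by 0.56 and 0.50 on the log2 scale (SE 0.16 and 0.13). PHF19 and MTF2, Polycomb-like proteins that help PRC2 bind CpG islands, fell at both times. PHF19 went from 36.5 CPM in 2D to 26.7 and 17.6 CPM, with log2 fold changes of -0.45 (adjusted p = 0.0452) and -1.05 (adjusted p = 0.000573). The third Polycomb-like gene, PHF1, fell from 25.9 to 13.7 CPM at day 7 and was 33.0 CPM at day 14, a rise of 1.27 on the log2 scale between the 3D times (SE 0.18, adjusted p = 0.000610). Median log2 fold changes of the list were -0.39, -0.05 and -0.01 in the 3 comparisons.

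PRC1 is the partner complex that ubiquitinates histone H2A and compacts chromatin. Counts in this paragraph are to be read against the shares of all genes called, 43.4, 36.2 and 28.1% in the 3 comparisons. Of 22 PRC1 genes tested, 4 rose and 6 fell in 3D_7d vs 2D, 4 and 2 in 3D_14d vs 2D (2 and 4 with total counts alone, which turned the balance), and 5 and 1 in 3D_14d vs 3D_7d. BMI1, which activates the ubiquitin ligase, rose from 13.9 CPM in 2D to 30.0 CPM at day 7 and 26.3 CPM at day 14 (log2 fold changes 1.11 and 0.92, SE 0.18 for both). CBX6, a chromodomain reader of H3K27me3, rose from 31.2 to 68.8 and 67.6 CPM, whereas CBX7 fell from 6.55 to 1.76 CPM at day 7 (-1.89, SE 0.25) and was 4.35 CPM at day 14. BCOR, of the variant PRC1.1, rose at both times, with overlap at day 14. PCGF3 fell at both, from 51.4 to 30.1 and 34.1 CPM. Of 5 tested genes for the removal of these marks, BAP1, the H2A deubiquitinase, rose at day 7 (57.8 to 76.9 CPM, 0.41, SE 0.13, adjusted p = 0.0250) and no other call was made. With total counts alone 0 of the 5 rose and 1 fell at day 7. Among 5 H3K36 methyltransferases, whose mark opposes PRC2, 2 fell against 2D at both times: NSD2 (106, 71.8 and 50.5 CPM in 2D, 3D_7d and 3D_14d) and NSD3 (114, 57.7 and 60.8 CPM).

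Partners of DNA methylation fell more often than they rose. Of 8 tested, 1 rose and 4 fell in 3D_7d vs 2D, 0 and 6 in 3D_14d vs 2D, and 0 and 5 in 3D_14d vs 3D_7d. Of all genes tested, 22.2% rose and 21.2% fell at day 7, and 19.0 and 17.2% at day 14 against 2D. Between the 3D times these shares were 14.5 and 13.6%. PCNA, the clamp that carries DNMT1 to replication forks, went the way of DNMT1: 251 CPM in 2D, 320.0 CPM in 3D_7d and 149 CPM in 3D_14d (log2 fold change 0.35 at day 7, adjusted p = 0.0443, a call lost under the 3 other scalings and without any one 2D or 3D_7d replicate; -0.75 at day 14, adjusted p = 0.000930). UHRF2, the paralog of UHRF1 that does not replace it in maintenance, fell at both times, from 48.8 to 28.2 and 29.4 CPM (-0.79 and -0.73, SE 0.15 for both), so that the paralogs were called in opposite directions at day 7. CDCA7, which brings the remodeler HELLS to nucleosomes, fell from 123 to 73.1 and 37.7 CPM. HELLS itself was not called at day 7 and fell in both comparisons of day 14, at 63.7, 70.3 and 30.8 CPM in 2D, 3D_7d and 3D_14d.

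Counts for genes that read, remove or supply the methyl group are to be read against the same shares of all genes, 43.4% at day 7, 36.2% at day 14 and 28.1% between the 3D times. Of 8 readers of methylated CpG, 1 rose and 0 fell at day 7 (MBD3, 30.7 to 53.6 CPM), 2 rose and 0 fell at day 14 against 2D, and 2 and 0 between the 3D times, but 0 rose against 2D at either time with total counts alone. Of 13 genes of demethylation and repair, 2 rose and 2 fell at day 7, 2 and 5 at day 14, and 0 and 5 between the 3D times. IDH2, which makes the cofactor of TET enzymes in mitochondria, fell from 669 CPM to 336 and 344 CPM (-0.99 and -0.96, SE 0.16 for both). IDH1, of the same list, went the other way at day 7, from 45.8 to 74.9 CPM (0.71, SE 0.14, adjusted p = 0.00169). Its mean at day 14 was 53.9 CPM. The glycosylase TDG, which removes oxidized methylcytosine, rose at day 7 from 30.6 to 50.9 CPM (0.73, SE 0.17, adjusted p = 0.00395). Of 6 genes of the methyl donor cycle, 2 rose and 0 fell at day 7, 1 and 2 at day 14 (0 and 3 with total counts alone), and 0 and 3 between the 3D times. AHCY, which clears the product that inhibits methyltransferases, was measured at 107, 127 and 58.3 CPM in 2D, 3D_7d and 3D_14d and fell by 0.88 on the log2 scale at day 14 (SE 0.15).

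**Figure D4:**
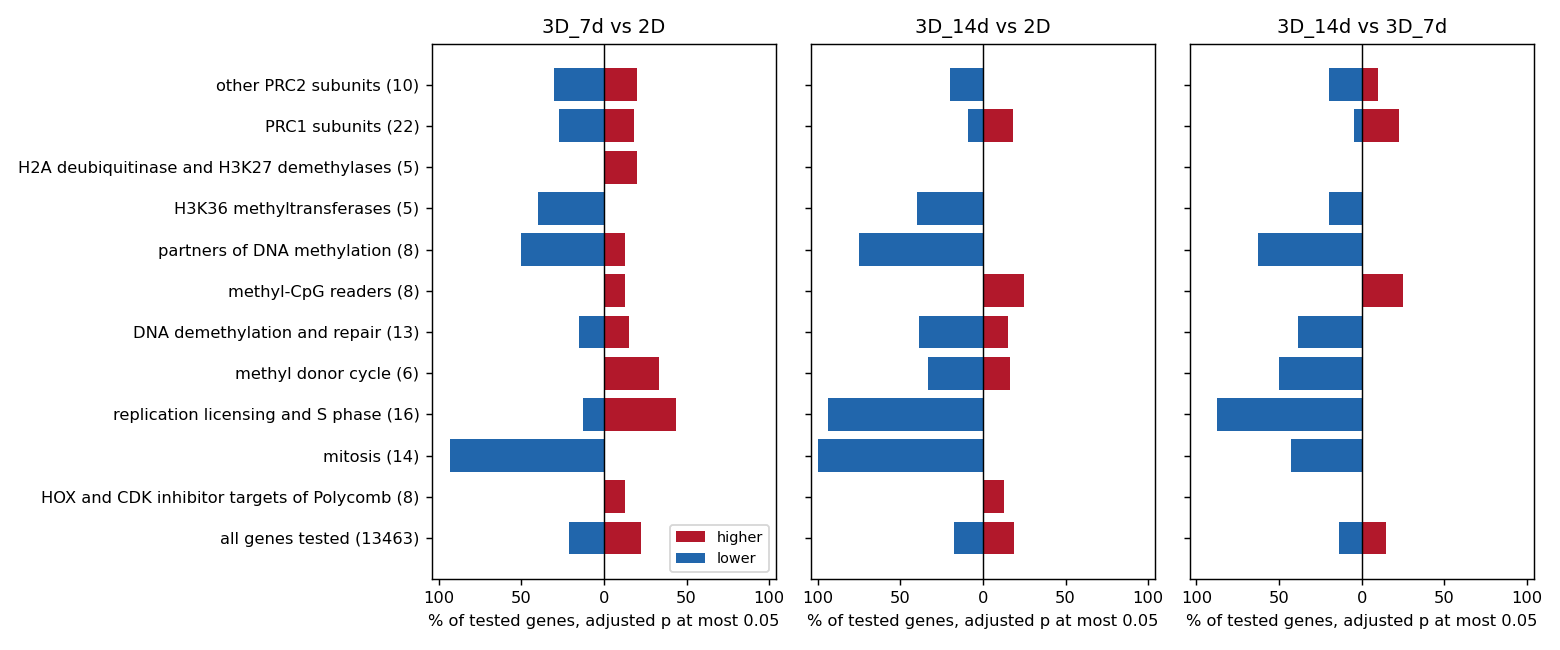
Share of the tested genes of each list (x axis, %; number tested in brackets) that passed an adjusted p of 0.05, higher to the right and lower to the left, with all 13463 tested genes at the bottom, in the 3 comparisons. The mitosis bar points to lower at both times, while the S phase bar points mostly to higher at day 7 (7 of 16) and to lower at day 14 (15 of 16).

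UHRF1, DNMT1 and EZH2 are known to be transcribed with the genes of DNA replication, and the levels of cell cycle genes are given beside them. Of 16 genes of replication licensing and S phase, 7 rose and 2 fell in 3D_7d vs 2D (5 and 3 with total counts alone), 0 and 15 in 3D_14d vs 2D, and 0 and 14 in 3D_14d vs 3D_7d. Of 14 mitosis genes, 0 rose and 13 fell at day 7, 0 and 14 at day 14, and 0 and 6 between the 3D times. Of all genes tested, 43.4, 36.2 and 28.1% were called in the 3 comparisons. The median log2 level of the S phase list, relative to its 2D mean, was 0.35 to 0.39 in the 3D_7d libraries and -1.74 to -0.84 in 3D_14d, and that of the mitosis list was -1.49 to -0.93 and -2.03 to -1.64. UHRF1 lay at 1.28 to 1.51 and -1.33 to -0.23 on the same scale, DNMT1 at 0.19 to 0.31 and -0.84 to -0.61, and EZH2 at -0.28 to 0.14 and -1.13 to -0.95. At day 7, UHRF1 and DNMT1 lay above 0, as the S phase median did, and the mitosis median lay below 0. EZH2 lay above 0 in 1 of 3 libraries at day 7 and below 0, the side of the mitosis median, in the others. At day 14 UHRF1, DNMT1, EZH2 and both medians lay below 0 in every library. So did SUZ12 (-1.37 to -0.76), TET2 (-1.31 to -0.55), DNMT3A and TET1. EED lay above 0 at day 14, and TET3 and DNMT3B lay on both sides. MCM4 and MCM5, of the replicative helicase, had means of 193, 415 and 94.5 CPM and of 365, 691 and 263 CPM in 2D, 3D_7d and 3D_14d. Such a rise was not common to the list: MCM7 had 856, 838 and 354 CPM. MKI67, a proliferation marker, had 256, 69.8 and 43.0 CPM. CDT1 and GINS2 were the S phase genes that fell at day 7, from 118 to 27.3 CPM and from 128 to 82.5 CPM. The part of the cell cycle in the changes of the 10 genes was not tested.

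**Figure D5:**
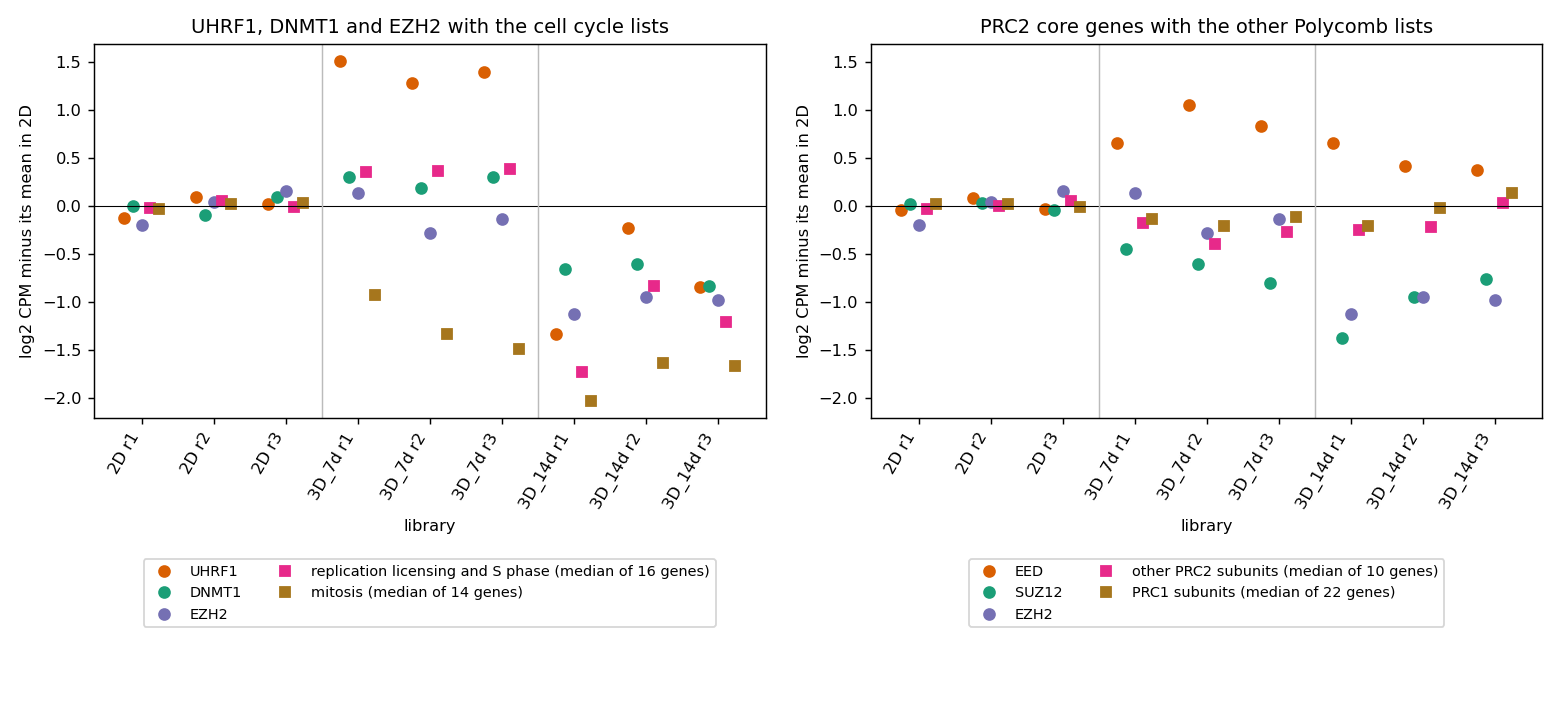
Log2 CPM minus its mean in 2D (y axis) in each of the 9 libraries (x axis, r for replicate), for UHRF1, DNMT1 and EZH2 with the medians of the S phase and mitosis lists (left) and for EED, SUZ12 and EZH2 with the medians of the other PRC2 and the PRC1 lists (right). In 3D_7d UHRF1 lies above the S phase median and the mitosis median lies below 0, and EED and SUZ12 lie on opposite sides of 0 in all 6 scaffold libraries.

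Of genes that these marks are known to silence, few passed the filter on low values. Of 42 HOX genes and CDK inhibitors, 8 passed the filter, of which 1 rose and 0 fell in 3D_7d vs 2D, 1 and 0 in 3D_14d vs 2D (HOXB7, 8.35 to 16.8 CPM) and 0 and 0 between the 3D times. With total counts alone 1 rose and 1 fell at day 7 and 0 rose at day 14. The shares of all genes called in the 3 comparisons were 43.4, 36.2 and 28.1%. The summed level of the 42 was 96.9 to 116 CPM in 2D, 98.5 to 107 CPM in 3D_7d and 107 to 164 CPM in 3D_14d. The 3D_14d median was 110 CPM, within the 2D range, so that 1 library alone lay above it. Of 17 germline genes that promoter methylation keeps silent in somatic cells, 0 passed the filter, and their summed level was at most 3.27 CPM in 2D, 1.13 CPM in 3D_7d and 2.85 CPM in 3D_14d. Neither DNA methylation nor H3K27me3 was measured.

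Genes with the profile most like each member were found by the root mean square difference of log2 CPM, each centred on its mean over the 9 libraries. UHRF1 was nearest to MCM4 (0.17), then to AC112777.1 (0.25) and CYP1B1 (0.28). DNMT1 was nearest to DPYSL2, PCNA and DNAJC9 (0.09 for each). EZH2 was nearest to TADA2A (0.13), GINS3 (0.14) and ERCC6L2 (0.15). The other PRC2 genes had other neighbors: SPHK2, CDC123 and DHDDS for EED (0.08 for each), and NBN, SLC25A25 and EPB41 for SUZ12 (0.09, 0.09 and 0.10). TET2 lay nearest to KAT6B (0.13), MBTD1 (0.13) and CDK5RAP2 (0.14), and DNMT3A to SPAG9 (0.09), MBP (0.10) and ZNF44 (0.12). TET3 lay nearest to C1RL (0.08), AC073896.2 (0.11) and AL139011.1 (0.12). Among the 10 genes themselves, the closest pairs were DNMT1 with EZH2 (0.21) and TET2 with SUZ12 (0.24). EZH2 with SUZ12 was at 0.30, UHRF1 with DNMT1 at 0.62, and EED with SUZ12 at 0.75. For DNMT3B and TET1 no profile came nearer than 0.69 and 0.46, in a range of 5.69 and 4.74 over the 9 libraries.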

How the data were processed

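Per the labels and the methods of the study, the authors prepared SMART-Seq v4 libraries from MEC1 RNA and sequenced them as single reads. Reads went through Trimmomatic 0.39 (trimming), STAR 2.5.3a (alignment, GRCh38) and featureCounts 1.6.4 (counts per gene). Neither strand nor multimapping settings are given in the sources used here. The deposited values are raw counts per gene symbol, with the exon length of each gene as deposited by the authors. Exon lengths were checked only against the exon coordinates deposited with the counts, and the promoter windows against the genome sequence.

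Counts were scaled by TMM and tested with edgeR 4.0.16 (quasi-likelihood test, R 4.3.3) in one fit of all 9 libraries, over 13463 genes with more than 1 CPM in at least 3 libraries. Adjusted p-values are Benjamini-Hochberg values over all genes of a comparison, and the threshold was 0.05. CPM and RPKM are relative to the counts of the tested genes times the TMM factor. Log2 levels have a prior count of 2. Standard errors are the log2 fold change divided by the root of the F statistic. The fit was tested on simulated data with known changes. Ratios were compared by an exact two-sided permutation test, and lists by counts and medians alone.

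The genes named are the 10 members, up to 3 genes per list, comparison and direction with the smallest p among those past the threshold, EZH1, PCNA and MKI67, and the 3 nearest profiles of a member. DNMT3L, SUZ12P1 and MCM7 fall outside that rule and were named after their values were seen. MBD3, HELLS and other list genes fall under that rule. The members and lists were chosen with earlier results of these data known. Alternatives were other scalings, DESeq2 1.42.0, other filters, fewer samples, a replicate block, a gene length trend and, added after the data were seen, a GC content trend. Some genes of the lists are not reported here by name.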

Additional observations from a re-analysis of the deposited data

Results flagged for a closer look

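For 3 of the 10 genes the effect at day 14 differed from that at day 7 by a test of the difference itself, the edgeR comparison of 3D_14d with 3D_7d, in which 28.1% of all genes tested passed, so that the share of the 10 is near that of all genes. The log2 difference was -0.97 for DNMT1 (SE 0.13, adjusted p = 0.000432), -2.13 for UHRF1 (SE 0.23, adjusted p = 0.000121) and -0.94 for EZH2 (SE 0.16, adjusted p = 0.00139). All 3 libraries of day 14 lay below all 3 of day 7 for each of these genes.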

How the results depend on the processing

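There were 20 alternatives, 9 that leave out 1 library and 11 others. Of 591 values of the 10 genes, 548 kept their direction and their side of the threshold. Of 30 gene by comparison values, 15 did so in every alternative run. Of list counts, 1684 of 1920 stayed within 1.5 times. These include the germline, T cell and monocyte lists, which had 0 tested genes and so a count of 0 under the same filter. Ratio differences were judged by direction alone, leaving out 1 library or without division by gene length, and 146 of 154 kept it. Division by gene length cannot change such a difference, so those values were the same in advance. DNMT3B did not pass the filter without 2D replicate 1, 2D replicate 2 or 3D_14d replicate 3. The causes of the changes below were not tested.

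In 3D_7d vs 2D, 2 genes were called lower with DESeq2, with no filter, with only the 6 samples of the comparison, or with the replicate block and the length trend together, against 1, and with only those 6 samples 5 genes were called. The added gene was TET2 in the first 3 of these and DNMT3B in the last. DNMT1 passed with the 6 samples (adjusted p = 0.0337), as it did with the GC trend removed (adjusted p = 0.0462), which ended the day 14 call of TET2 (adjusted p = 0.0509). Leaving out 1 library gave 1 to 2 lower. In 3D_14d vs 2D, 0 genes were called higher with total counts alone or no filter, and leaving out 1 library gave 3 to 6 called, 3 to 5 lower and 0 to 1 higher, the lowest without 2D replicate 2. In 3D_14d vs 3D_7d it gave 3 to 5 called and 3 to 5 lower, the highest without 3D_14d replicate 3, when TET1 and SUZ12 passed. Without 3D_14d replicate 1, the library farthest from its group, 4, 5 and 4 genes were called in the 3 comparisons.

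Direction turned only for values that had not passed. For TET1 at day 7 the log2 fold change was 0.016 with the length trend removed, 0.047 with the block as well and -0.29 to 0.019 leaving out 1 library. For TET3 at day 14 these were 0.064, 0.035 and -0.34 to 0.015. In 3D_14d vs 3D_7d, DNMT3A was at -0.0046 (total counts), -0.014 (no filter), -0.030 (GC trend) and -0.11 to 0.21 leaving out 1 library, TET3 at -0.028, -0.027, -0.021 and -0.15 to 0.15, and TET2 at -0.41 to 0.18. Leaving out 1 library also turned the log2 ratio differences of EZH2 to SUZ12 (-0.11 to 0.12), UHRF1 to DNMT1 (-0.35 to 0.18) and DNMT3B to DNMT3A (-1.06 to 0.15) at day 14 against 2D, and of EED to SUZ12 (-0.21 to 0.23) and TET2 to TET3 (-0.42 to 0.23) between the 3D times.

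Scaling by total counts alone moved the median of all genes to -0.16 and -0.18 against 2D and the share of higher calls from 51.1 to 37.6% and from 52.5 to 33.0%. Higher calls of all genes in 3D_14d vs 2D numbered 2557, against 1603 with total counts, 1599 without 2D replicate 2 and 1564 without 2D replicate 3. In 3D_14d vs 3D_7d, 1951 higher and 1834 lower calls became 1124 lower with only the 6 samples, 1193 and 1098 without 3D_7d replicate 2, and 1092 lower without 3D_7d replicate 3.

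Same-numbered libraries correlated at -0.10 to 0.19 over 9 pairs, of which 2 exceeded 0.1. Libraries of unlike number correlated at -0.13 to 0.081 over 18 pairs, of which 0 exceeded 0.1. The pairs over 0.1 were of 2D with 3D_14d (0.19 for replicate 1 and 0.11 for replicate 2), where replicate 3 gave 0.093. Whether the numbers pair the samples thus remains unknown. With the replicate block, 3, 6 and 3 of the 10 genes were called, as without it, and 2939, 2458 and 1818 of all genes were called higher.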
